A study of Homo sapiens with 12 samples.

Results

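The transcription factor NF-kB and its inhibitors were followed at the transcript level in HT1080 cells, a human fibrosarcoma line, after exposure to a phorbol ester or to a lectin. The set holds 10 genes named by symbol for their place in the pathway, out of 16633 genes listed in the files. It consists of the 5 subunit genes NFKB1, NFKB2, REL, RELA and RELB, the inhibitor genes NFKBIA, NFKBIB and NFKBIE, the nuclear regulator NFKBIZ, and TNFAIP3, which encodes the ubiquitin-editing enzyme A20. Each of the 10 was listed in both experiments and passed the filter on low values (10 normalized counts on average over an experiment's 6 libraries) in both.

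Polyadenylated RNA was sequenced from 12 libraries of wild type HT1080 cells, 3 in each of 4 groups, and the study asked how either agent changes the transcriptome of this line. In the PMA experiment, cells received 40 nM phorbol 12-myristate 13-acetate (PMA), which mimics diacylglycerol and activates protein kinase C, for 24 h, beside 3 controls numbered 1 to 3. In the ConA experiment, cells received 40 µg/mL concanavalin A (ConA), a plant lectin that binds mannose-containing glycans on the cell surface, for 24 h, beside 3 controls of its own numbered 4 to 6. All groups grew for 3 days in biotin-depleted medium with 10% serum, and the switch to biotin-depleted medium with 1% serum is given in the labels together with the treatment.

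NF-kB proteins bind DNA as dimers built from 5 related subunits. In resting cells inhibitors of the IkB type, such as the product of NFKBIA, hold these dimers in the cytoplasm until an IkB kinase marks the inhibitor for destruction, which is the canonical route, while a slower route processes the NFKB2 precursor and releases dimers with RELB. Several inhibitor genes are themselves well known targets of NF-kB, so that their transcripts are widely read beside those of the subunits, and in fibroblast-like cells the pathway is best known for its control of cytokines, chemokines and adhesion molecules.

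Gene-assigned reads per library were estimated at 33616572 to 45569292. Values are normalized counts that were scaled within each experiment and not divided by gene length, so levels are compared between groups of one experiment and never between genes. Replicate libraries differed by more than sampling noise, with a squared difference per gene of 3.53 to 16.4 times its sampling variance, and differences were judged against that spread with limma on log2(normalized count + 1). The fold changes below are on that scale, with Benjamini-Hochberg adjustment over the 15153 genes tested with PMA and the 15139 tested with ConA. A call, higher or lower, needed a log2 fold change of 1 or more in size together with an adjusted p no larger than 0.0001, and the looser rule of an adjusted p of at most 0.05 at any fold is given beside it. The smallest p of an exact permutation test on 1 gene is 0.1 with 3 libraries in either group. The labels do not say whether the replicates were separate cultures, so p-values measure only the spread between these libraries. In bulk RNA, a change in how many cells express a gene and a change in RNA per cell cannot be told apart.

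Markers of other cell types were looked at as well, and the libraries of the PMA experiment, controls included, held transcripts that a fibrosarcoma line is not known for. Of 16 T and NK cell markers, 14 were listed there, among them CD3E, CD8A and PTPRC, and TRAC and TRBC1 were not. Their sum was 1584 to 1797 normalized counts in the controls and 2231, 2724 and 3252 in the PMA libraries. At the looser rule 10 of the 14 were higher (32.8% of all genes tested), and 1, GNLY, was called higher (4.03% of all genes tested). In the ConA experiment 3 of the 16 were listed, with sums of 58.1 to 71.0 in controls and 69.0 to 77.1 with ConA. Mesenchymal markers fitted the label in both, with 10 of 10 listed in the PMA experiment (summed 558704 to 579739 over its libraries) and 9 of 10 in the ConA experiment (675116 to 743159 in controls, 502871 to 554965 with ConA), where THY1 was not listed. These sums hide moves of single genes in both directions at the looser rule. With PMA 1 of the 10 was called lower (4.61% of all genes tested) and with ConA 1 of the 9 (2.88%), and 0 were called higher. Monocyte and macrophage markers (5 of 10 and 4 of 10 listed) summed to 5307 to 5774 in controls and 7549 to 7750 with PMA, and to 6175 to 6604 and 17578 to 20786 with ConA. CD68, a lysosomal protein gene, had a mean of 5925 in ConA controls and 18900 with ConA and was called. With ConA, ITGAM went from 3.685 to 29.42 (log2 2.88, adjusted p = 0.000134, limma) and CSF1R from 356.9 to 259.6 (log2 -0.46, adjusted p = 0.000451, limma), neither called, and CD14, AIF1, MARCO, SPI1 and TYROBP were not listed in either experiment. Of 8 B cell markers, 1 was listed in the PMA experiment (sums of 4.5 to 10.8 in controls and 4.6 to 7.2 with PMA) and 3 in the ConA experiment (8.014 to 15.01 and 34.05 to 48.53).

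The start sites of 8 of the 10 genes were matched to RefSeq promoter windows on GRCh38.p14, each running from 250 bases before to 50 bases after an annotated transcript start. RELB and NFKBIE were not matched. The windows were searched on both strands for the kB consensus, the decamer that NF-kB dimers bind, and 7 of the 8 genes held a match in at least 1 window (9 of their 14 windows). Over all RefSeq genes with a window, 7.09% held a match in at least 1 window, and 5.91% of all 35116 windows did. RELA was the exception, with no match in either of its windows. A match shows only that the letters occur there. For comparison, the AP-1 element TGACTCA, searched on both strands, occurred in 0 of the 14 windows and in 4.95% of all windows. With so few windows, 0 is near that share and does not show that the element is rarer in these genes. The matches of the subunit genes are shown here with 9 bases on each side, written 5′ to 3′ on the strand of the gene. Capitals mark the letters of the match, and where matches on both strands overlap the capitals cover both. The NFKB1 match began 49 bases before the start, the REL match 47 bases before, and the NFKB2 matches 107 and 78 bases before its second listed start and 176 and 21 bases before its last.
NFKB1, chr4:102501301-102501328, plus strand: gacgtcagtGGGAATTTCCagccaggaa
NFKB2, second listed start, chr10:102394462-102394490, plus strand: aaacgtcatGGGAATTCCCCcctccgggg
NFKB2, second listed start, nearer match, chr10:102394491-102394518, plus strand: ggccgagaaGGGGCTTTCCcggccctga
NFKB2, last listed start, chr10:102395520-102395547, plus strand: acccccaccGGGGCTTCCCggattctcc
NFKB2, last listed start, nearer match, chr10:102395675-102395702, plus strand: ggtattttcGGGACTTTCCtaagctgct
REL, chr2:60881518-60881546, plus strand: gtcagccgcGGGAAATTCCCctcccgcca

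Among the inhibitor genes, the upstream windows of NFKBIA and TNFAIP3 are shown over 250 bases, because these inhibitors had the largest fold changes of the set with either agent, and those of NFKBIB and NFKBIZ are shown around the match alone. NFKBIA held its match 81 bases before the start. TNFAIP3 held a pair of matches, at 67 and 55 bases before the start. The NFKBIB match lay 28 bases before its last listed start, and the NFKBIZ matches lay 223 and 239 bases before its first and last. Capitals again mark the kB consensus on either strand.
NFKBIA, chr14:35404750-35404999, minus strand: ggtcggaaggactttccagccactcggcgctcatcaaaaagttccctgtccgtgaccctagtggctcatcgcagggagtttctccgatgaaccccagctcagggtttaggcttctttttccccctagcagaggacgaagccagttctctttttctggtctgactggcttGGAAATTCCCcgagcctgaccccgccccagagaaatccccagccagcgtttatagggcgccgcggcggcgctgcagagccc
TNFAIP3, chr6:137867009-137867258, plus strand: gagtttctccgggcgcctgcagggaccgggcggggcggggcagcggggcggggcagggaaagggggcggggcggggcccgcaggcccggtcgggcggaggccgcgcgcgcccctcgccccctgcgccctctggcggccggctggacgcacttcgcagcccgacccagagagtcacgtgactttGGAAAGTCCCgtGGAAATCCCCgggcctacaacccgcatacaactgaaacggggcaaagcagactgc
NFKBIB, last listed start, chr19:38899932-38899960, plus strand: ggcgtggtgGGGAATTTCCCgcagggcgg
NFKBIZ, first listed start, chr3:101827758-101827785, plus strand: ttttggtctGGGAATTTCCagtgtgcag
NFKBIZ, last listed start, chr3:101849266-101849293, plus strand: cgcgctgtcGGGGTTTCCCggtgaaggg

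With PMA, 8 of the 10 genes were called higher and 0 lower, where 4.03% of all genes tested were called higher and 4.61% lower. The called genes were NFKB1, NFKB2, RELB, NFKBIA, NFKBIB, NFKBIE, NFKBIZ and TNFAIP3. All 10 were higher at an adjusted p of at most 0.05 (limma), as were 32.8% of all genes, and in all 10 the 3 treated libraries lay above the 3 controls, as in 34.8% of all genes. The median log2 fold change of the 10 was 1.28, beside 0 over all genes tested. The T and NK marker sum was also higher in the PMA libraries, and its part in these values was not tested. With ConA, 6 of the 10 were called higher and 0 lower, namely NFKB1, NFKB2, RELB, NFKBIA, NFKBIE and TNFAIP3, where 5.83% of all genes were called higher and 2.88% lower. All 10 were again higher at the looser rule (32.8% of all genes) and free of overlap (34.9% of all genes), with a median of 1.28 against 0. The monocyte marker sum was higher with ConA, and its part was not tested either. These 6 genes were called higher with both agents, as were 1.13% of the 14661 genes tested in both experiments.

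**Figure D1:**
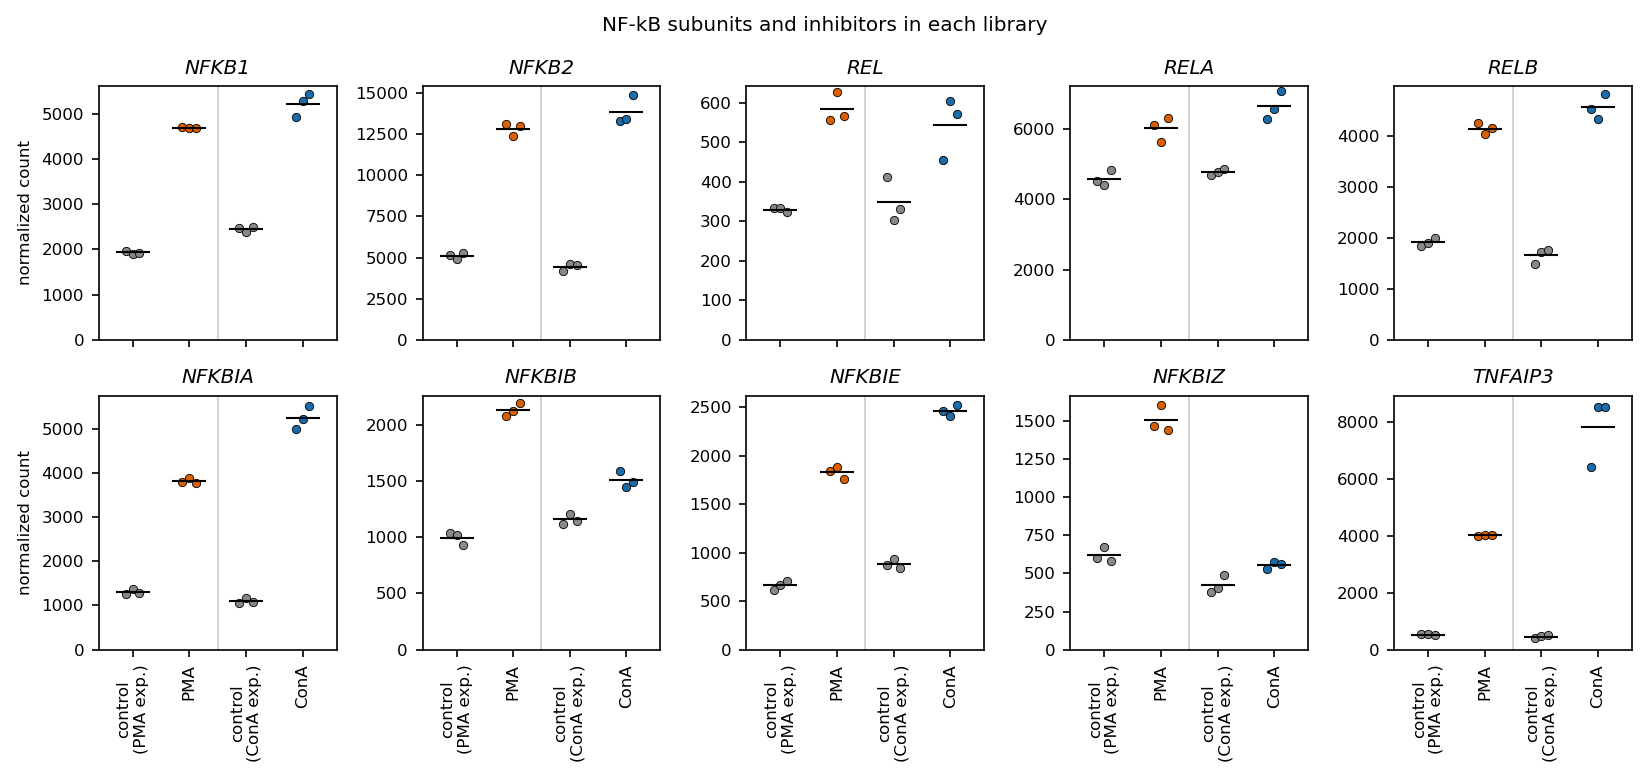
Normalized count (y axis, linear from 0, a scale of its own for each gene) of the 10 genes in each of the 12 libraries, with grey points for controls, orange for PMA, blue for ConA and bars for group means (n = 3). In all 10 panels every treated point lies above the controls on its side of the dividing line, and the orange points of TNFAIP3 lie between 4003 and 4025 while the blue points spread from 6436 to 8526.

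The panels of normalized counts by library show each experiment with its own controls. The line between the experiments marks that they were scaled apart, so heights are read on either side of it and not across it.

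NFKB1 encodes p105, the precursor of the p50 subunit. Its normalized counts were 1968, 1903 and 1926 in the controls and 4711, 4686 and 4678 with PMA, a 2.43-fold rise (log2 1.28, standard error 0.04, adjusted p = 1.55e-10, limma). In the ConA experiment they were 2478, 2383 and 2487 in the controls and 4917, 5291 and 5436 with ConA, a 2.13-fold rise (log2 1.09, standard error 0.06, adjusted p = 6.85e-10, limma). The PMA libraries were almost level in NFKB1, and no treated library came near a control. Under median centring of the libraries the ConA value was 1.00 on the log2 scale and no longer passed the fold threshold.

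NFKB2 encodes p100, both an inhibitor in its full length and the precursor of p52 in the slower route. It had 5171, 4908 and 5282 normalized counts in the controls and 13100, 12414 and 12979 with PMA, a 2.51-fold rise (log2 1.33, standard error 0.04, adjusted p = 2.64e-10, limma). With ConA it went from 4205, 4596 and 4550 to 13303, 13445 and 14903, a 3.12-fold rise (log2 1.64, standard error 0.06, adjusted p = 1.32e-11, limma). The lowest treated library of NFKB2, at 12414 counts, was far above the highest control, at 5282.

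RELB encodes the usual partner of p52. Controls of the PMA experiment had 1851, 1907 and 2009 normalized counts and PMA libraries 4257, 4047 and 4155, a 2.16-fold rise (log2 1.11, standard error 0.04, adjusted p = 1.88e-09, limma). With ConA the counts went from 1488, 1717 and 1775 to 4547, 4344 and 4824, a 2.76-fold rise (log2 1.46, standard error 0.07, adjusted p = 3.39e-10, limma). Treated and control libraries were far apart in both experiments, but the PMA value was close to the fold threshold. Quantile normalization brought it to 1.00, where RELB was no longer called.

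RELA and REL encode the subunits p65 and c-Rel, which carry the transactivation domains of the canonical dimers, and neither was called with either agent. RELA had 4521, 4400 and 4840 normalized counts in the controls and 6119, 5625 and 6332 with PMA, 1.31 times the control level (log2 0.39, standard error 0.05, adjusted p = 5.03e-05, limma). In the ConA experiment RELA had 4688, 4782 and 4870 in the controls and 6296, 6565 and 7095 with ConA, 1.39 times the control level (log2 0.48, standard error 0.06, adjusted p = 3.73e-06, limma). The RELA groups did not overlap in either experiment, and the change stayed under the fold threshold. REL, the subunit with the fewest counts, had 333.8, 332.7 and 322.3 in the controls and 557.2, 626.4 and 566.3 with PMA (log2 0.82, standard error 0.07, adjusted p = 1.33e-06, limma). With ConA it had 411.6, 302.2 and 331.6 in the controls against 454.6, 604.1 and 572.4 (log2 0.64, standard error 0.12, adjusted p = 0.000396, limma). One ConA library of REL, at 454.6, lay close to the highest control at 411.6. On the log2 scale, REL had the largest standard error of the 5 subunits in that experiment.

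NFKBIA encodes IkBα, the inhibitor that canonical signalling degrades and NF-kB re-induces. Its normalized counts were 1260, 1366 and 1282 in the controls and 3802, 3880 and 3767 with PMA, a 2.93-fold rise (log2 1.55, standard error 0.04, adjusted p = 1.34e-10, limma). With ConA they went from 1059, 1157 and 1077 to 5002, 5217 and 5521, a 4.78-fold rise (log2 2.26, standard error 0.06, adjusted p = 4.09e-13, limma). Every treated library was far above every control of its experiment, and the ConA libraries spread more widely than the PMA libraries.

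NFKBIE encodes IkBε, a further cytoplasmic inhibitor. It had 611.3, 668.9 and 705.0 normalized counts in the controls and 1844, 1880 and 1758 with PMA, a 2.76-fold rise (log2 1.47, standard error 0.06, adjusted p = 2.7e-09, limma). With ConA it went from 870.1, 932.5 and 836.5 to 2463, 2409 and 2522, a 2.80-fold rise (log2 1.49, standard error 0.06, adjusted p = 7.06e-11, limma). The folds of NFKBIE were near each other in the experiments, and the groups were well apart in both.

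NFKBIB encodes IkBβ, which is degraded and re-made more slowly than IkBα in the textbook account. It had 1034, 1019 and 927.1 normalized counts in the controls and 2077, 2119 and 2194 with PMA, a 2.14-fold rise (log2 1.10, standard error 0.05, adjusted p = 9.88e-09, limma). With ConA it had 1121, 1205 and 1147 in the controls and 1590, 1448 and 1494 in treated libraries, 1.30 times the control level (log2 0.38, standard error 0.06, adjusted p = 9.31e-05, limma). The ConA libraries lay above all controls of NFKBIB, but the fold was too small for a call.

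NFKBIZ encodes IkBζ, an atypical nuclear member of the family that binds p50 and modulates a subset of inflammatory genes. It had 600.2, 674.3 and 581.4 normalized counts in the controls and 1473, 1607 and 1443 with PMA, a 2.44-fold rise (log2 1.29, standard error 0.07, adjusted p = 2.04e-08, limma). With ConA it had 377.2, 402.2 and 486.9 in the controls against 532.7, 577.0 and 559.8, 1.32 times the control level (log2 0.41, standard error 0.10, adjusted p = 0.00192, limma). The highest ConA control of NFKBIZ, at 486.9, came near the lowest treated library, at 532.7.

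TNFAIP3 encodes A20, which trims the ubiquitin chains that carry the signal from receptors to the IkB kinase and so dampens it. It had 532.0, 547.3 and 505.5 normalized counts in the controls and 4003, 4014 and 4025 with PMA, a 7.59-fold rise (log2 2.92, standard error 0.05, adjusted p = 1.76e-12, limma). With ConA it went from 410.6, 460.2 and 501.9 to 6436, 8525 and 8526, a 17.0-fold rise (log2 4.09, standard error 0.10, adjusted p = 1.85e-13, limma). The first ConA library was lower than the others, yet each treated library was far above every control. TNFAIP3 had the largest change of the set with both agents and ranked 101 of 15153 genes from the highest log2 fold change with PMA and 112 of 15139 with ConA. Without the first ConA library its log2 fold change was 4.22.

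The changes with the agents were next set against each other as a difference, the PMA change minus the ConA change, with limma over the 12 libraries and 15181 genes. TNFAIP3 was the only member called, at -1.16 on the log2 scale (95% interval -1.43 to -0.90, adjusted p = 4.7e-07), so that its rise was larger with ConA. Among all genes, 6.82% were called lower and 3.63% higher in this difference. Without a variance trend in the fit its adjusted p was 0.000119 and it was not called. Agent and experiment cannot be told apart in this difference, since each agent was used in 1 experiment.

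At the looser rule, 4 of the 10 genes had the larger change with ConA (30.5% of all genes) and 3 with PMA (30.1% of all genes). The 4 were TNFAIP3, NFKBIA (difference -0.71, 95% interval -0.86 to -0.55, adjusted p = 2.72e-07, limma), RELB (-0.35, interval -0.54 to -0.17, adjusted p = 0.00206) and NFKB2 (-0.31, interval -0.47 to -0.16, adjusted p = 0.00131). Both counts are near the shares over all genes, and a pattern by route was not tested. The 3 with the larger change under PMA were NFKBIZ (0.88, interval 0.62 to 1.14, adjusted p = 8.47e-06, limma), NFKBIB (0.72, interval 0.55 to 0.89, adjusted p = 6.86e-07) and NFKB1 (0.19, interval 0.06 to 0.33, adjusted p = 0.0161). For NFKB1 the adjusted p was 0.192 under quantile normalization. NFKBIB and NFKBIZ were thus called with PMA and not with ConA, and the test of the difference passed the looser rule for both. No difference was detected for REL (0.18, interval -0.15 to 0.51), RELA (-0.08, interval -0.25 to 0.08) or NFKBIE (-0.02, interval -0.20 to 0.16), with adjusted p of 0.342, 0.374 and 0.849 (limma), and the intervals give the sizes of difference that the data leave possible. For RELA the adjusted p was 0.0231 under quantile normalization, with a difference of -0.21.

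**Figure D2:**
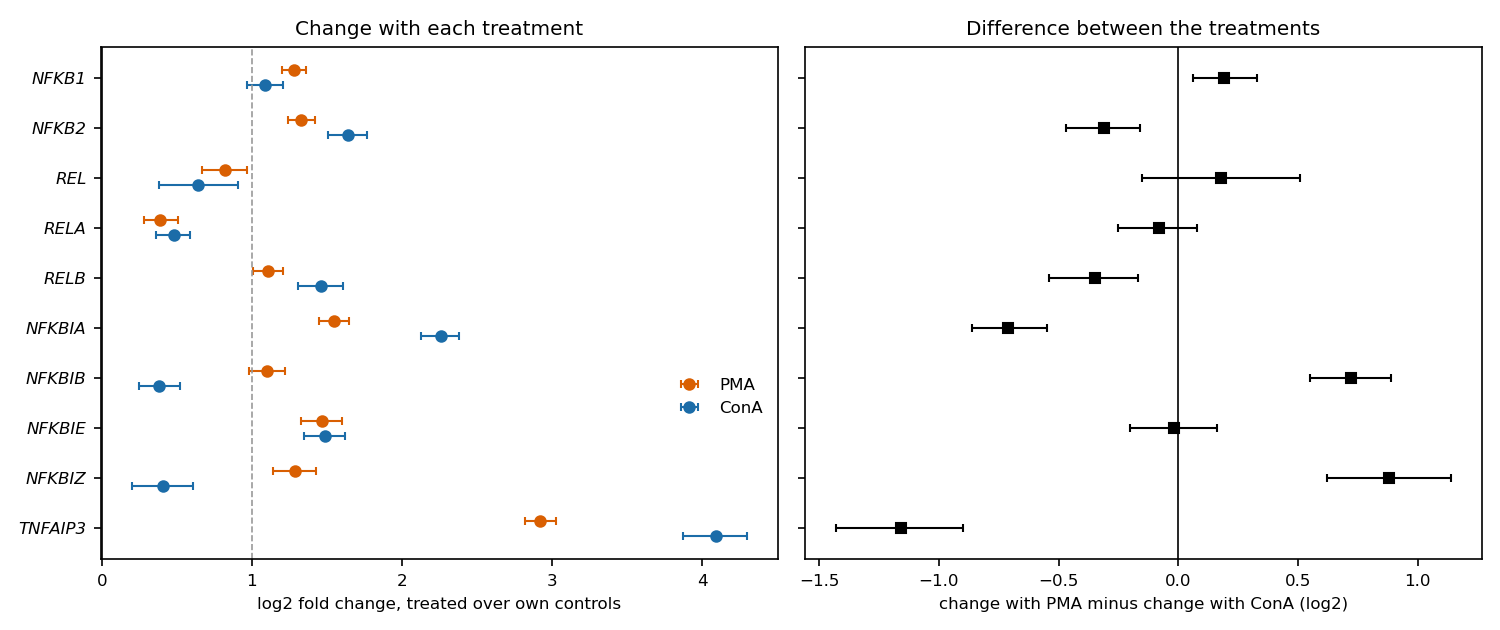
Left, log2 fold change of the 10 genes over the controls of the same experiment (x axis) with PMA in orange and ConA in blue, and right, the PMA change minus the ConA change (x axis, log2), each with its 95% interval from limma (n = 3 per group). The dashed line is the fold threshold of 1, and TNFAIP3 stands farthest right on the left side (2.92 and 4.09) and farthest left on the right side (-1.16).

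In the plot of changes and their intervals, REL and RELA stay to the left of the threshold line for both agents. NFKBIB and NFKBIZ cross it with PMA alone. NFKBIE lies at almost the same place for both.

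The balance between the inhibitors and the subunits was described by ratios within a library, which do not depend on how libraries are scaled. Counts were not divided by gene length, so only the change of a ratio is read, and no test was made. NFKB2 was counted among the subunits, although its full-length product also acts as an inhibitor. The ratio without it there was not computed. Summed NFKBIA, NFKBIB and NFKBIE counts over the summed counts of the 5 subunits went from 0.213 ± 0.0125 (SD, n = 3) in controls to 0.275 ± 0.0109 with PMA, a log2 change of 0.37 (standard error 0.06). With ConA this ratio went from 0.229 ± 0.0103 to 0.299 ± 0.00817, a log2 change of 0.39 (standard error 0.04). In both experiments the 3 treated libraries lay above the 3 controls in this ratio of sums. The ratio does not hold for each inhibitor, since the ConA value of NFKBIB (log2 0.38) was below that of each subunit. With PMA, NFKBIB (1.10) was below NFKB1 (1.28), NFKB2 (1.33) and RELB (1.11), and above REL (0.82) and RELA (0.39). NFKBIA over RELA, the pair of the canonical route, went from 0.285 ± 0.0233 to 0.635 ± 0.0489 with PMA (log2 change 1.16, standard error 0.09). It went from 0.230 ± 0.0109 to 0.789 ± 0.00945 with ConA (log2 change 1.78, standard error 0.04).

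The subunits also changed among themselves. NFKB2 plus RELB over NFKB1 plus REL plus RELA, the slower route over the rest, was 1.03 in each control of the PMA experiment and 1.52, 1.50 and 1.48 in the PMA libraries, a log2 change of 0.55 (standard error 0.01). In the ConA experiment it was 0.751, 0.845 and 0.823 in the controls and 1.53, 1.43 and 1.51 with ConA, a log2 change of 0.88 (standard error 0.06). The rise with PMA does not hold gene by gene, since NFKB1 (log2 1.28) rose more than RELB (1.11) and nearly as much as NFKB2 (1.33). REL (0.82) and RELA (0.39) rose less. With ConA, NFKB2 (1.64) and RELB (1.46) each rose more than NFKB1 (1.09), REL (0.64) and RELA (0.48). The treated libraries of both experiments reached a similar ratio from different control ratios, and since a ratio within a library is free of the scaling, the control ratios differed between the experiments. With each gene given the same weight, the change of this ratio with PMA was 0.39 in place of 0.55, and that of inhibitors over subunits with ConA was 0.31 in place of 0.39.

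**Figure D3:**
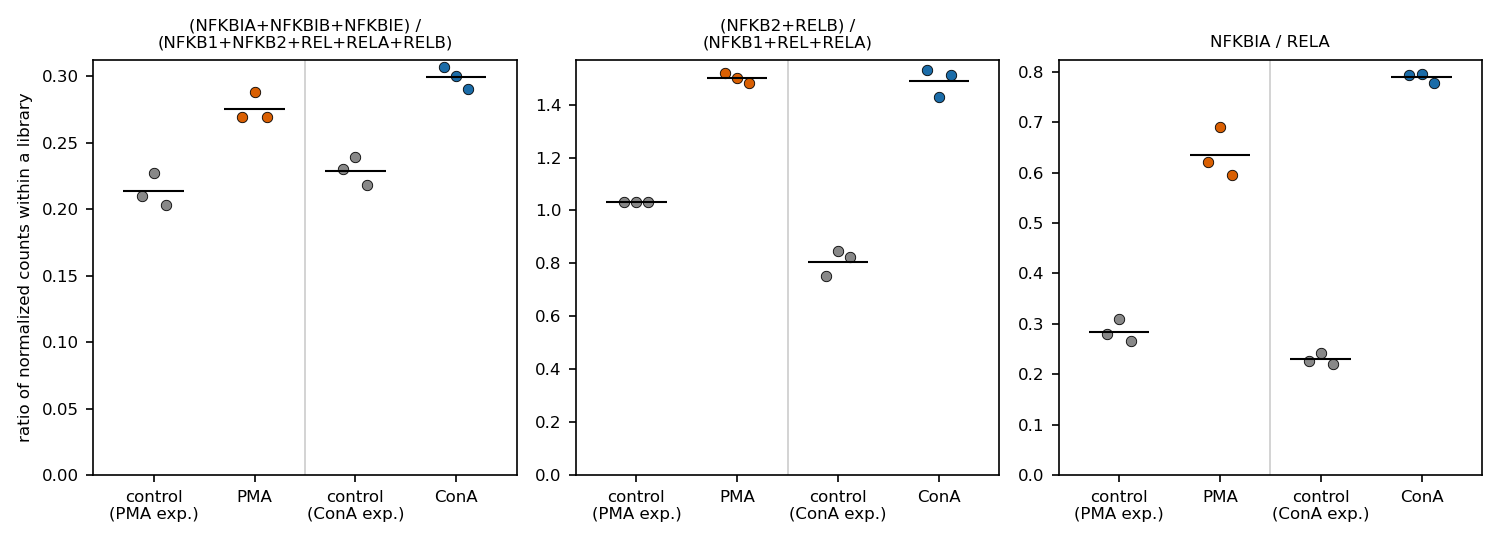
Ratios of summed normalized counts within each library (y axes, linear from 0) for inhibitors over subunits, NFKB2 and RELB over the other subunits, and NFKBIA over RELA, with points for libraries and bars for group means (n = 3). Every treated library lies above the controls of its experiment in all 3 panels, and the middle panel shows treated libraries between 1.43 and 1.53 in both experiments.

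The panels of ratios make the shift of NFKBIA over RELA visible as the largest of the 3, with ConA above PMA. This shift restates the fold changes of these genes given above and is not a further result.

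The rest of the pathway was described by lists of its other parts, written from general knowledge but with earlier results of these data known. The counts of calls in the lists stand beside shares over all genes tested. These were 4.03% called higher and 4.61% lower with PMA, and 5.83% and 2.88% with ConA. In the other IkB family, BCL3 and NFKBID, 0 of 2 genes were called with either agent, and the list medians were -0.03 with PMA and 0.39 with ConA. BCL3, a nuclear partner of p50 and p52, stood at -0.59 on the log2 scale with PMA (adjusted p = 1.73e-05, limma) and at 0.28 with ConA (adjusted p = 0.00112, limma). NFKBID, a further nuclear member, had 0.52 and 0.51.

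Of the 11 genes of the IkB kinase complex and the kinases above it, 0 were called with PMA (median 0.37) and 2 with ConA (median 0.11). The 2 were MAP3K8, which encodes the kinase TPL2 (log2 2.62, adjusted p = 2.9e-06, limma), and IKBKE, an IkB kinase related enzyme (log2 1.25, adjusted p = 1.54e-10, limma). MAP3K8 had a mean of only 9.758 normalized counts in the ConA controls and was not called without a variance trend, where its adjusted p was 0.000458. With PMA, MAP3K8 had 1.01 (adjusted p = 0.00134, limma). It was called with PMA without a variance trend (adjusted p = 2.66e-05, limma), and also at an adjusted p of 0.05 with the same fold. IKBKE had 0.97 with PMA, and MAP3K14, the kinase NIK of the slower route, -0.79. CHUK, which encodes the kinase subunit IKKα, had 0.43 with ConA.

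In the branch of CARD proteins, BCL10 and MALT1, which links protein kinase C to NF-kB, 1 of 6 genes was called with PMA and 1 of 5 with ConA, with medians of -0.17 and -0.23. CARD10, the scaffold of this branch outside blood cells, fell with PMA from 1206 ± 65.5 to 423.9 ± 40.1 normalized counts (SD, n = 3, log2 -1.51, adjusted p = 1.41e-08, limma) and had -0.83 with ConA. CARD14 rose with ConA from 11.44 ± 4.38 to 56.36 ± 19.1 (log2 2.21, adjusted p = 3.4e-05, limma). The call of CARD14 was lost without the second ConA control (adjusted p = 0.000118), without the third ConA library (0.000508) and without a variance trend (0.00197). CARD9 had -0.75 with PMA and -0.71 with ConA, neither past the looser rule.

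Of 17 receptor adaptors and ubiquitin ligases, 4 were called higher with PMA and 3 with ConA, 0 lower, with medians of 0.11 and 0.49. TRAF1, an adaptor of TNF receptors, rose by 2.81 with PMA and 3.24 with ConA on the log2 scale. BIRC3, the ubiquitin ligase cIAP2, rose by 2.19 and 4.11. IRAK2, a kinase-like adaptor of interleukin and Toll-like receptors, rose by 1.25 and 1.60.

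Of 14 deubiquitinases and partners of A20, 3 were called higher and 1 lower with PMA and 4 higher with ConA, with medians of 0.17 and 0.35. TNIP1, which binds A20 to ubiquitin chains, had 10970 ± 221 normalized counts in PMA controls and 26730 ± 717 in PMA libraries (SD, n = 3, log2 1.28) and from 11020 ± 147 to 37650 ± 888 with ConA (log2 1.77). TNIP3, a relative of TNIP1, rose by 4.66 with PMA on the log2 scale, from a control mean of 4.525 counts. In the ConA experiment it had about 6 reads over the 3 controls and 308 with ConA, a ratio of 49.5 (95% interval 22.5 to 136 for counting error only), and its call was lost without a variance trend (adjusted p = 0.000519). ZC3H12A, which encodes the RNase Regnase-1, rose with PMA (log2 1.50). USP18, the protease of the ubiquitin-like protein ISG15, was the gene that fell with PMA (log2 -1.09, adjusted p = 2.01e-06, limma), and it rose with ConA (log2 4.86, adjusted p = 2.92e-16, limma). TNIP1 and TNIP3 were called in the same direction as TNFAIP3 with both agents, and USP18 in opposite directions.

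Of the well known response genes of NF-kB, 13 of 23 tested were called higher with PMA and 16 of 22 with ConA, 0 lower, with medians of 1.79 and 2.14. The largest changes with PMA were those of the chemokine genes CXCL8 (log2 5.80) and CXCL3 (5.63) and of the cytokine gene IL6 (5.56). With ConA the largest fitted changes were those of the adhesion molecule genes ICAM1 (5.33) and VCAM1 and of SOD2 (4.56), the mitochondrial superoxide dismutase, and the place of VCAM1 among them depends on the pseudocount. VCAM1 was at 0 in all 3 ConA controls and was at least 9.71-fold higher with ConA, against a floor of 3 reads in each control library averaged over the group. The median of the list is the same with VCAM1 at this bound. Its call was lost without the third ConA library (adjusted p = 0.000137) and without a variance trend (0.000113). Over all lists, PMA gave 22 called genes, of which CARD10 and USP18 were lower and the rest higher. ConA gave 26 called genes, all higher, and 17 without a variance trend. Among all genes tested, 4.03% were called higher and 4.61% lower with PMA, and 5.83% and 2.88% with ConA.

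**Figure D4:**
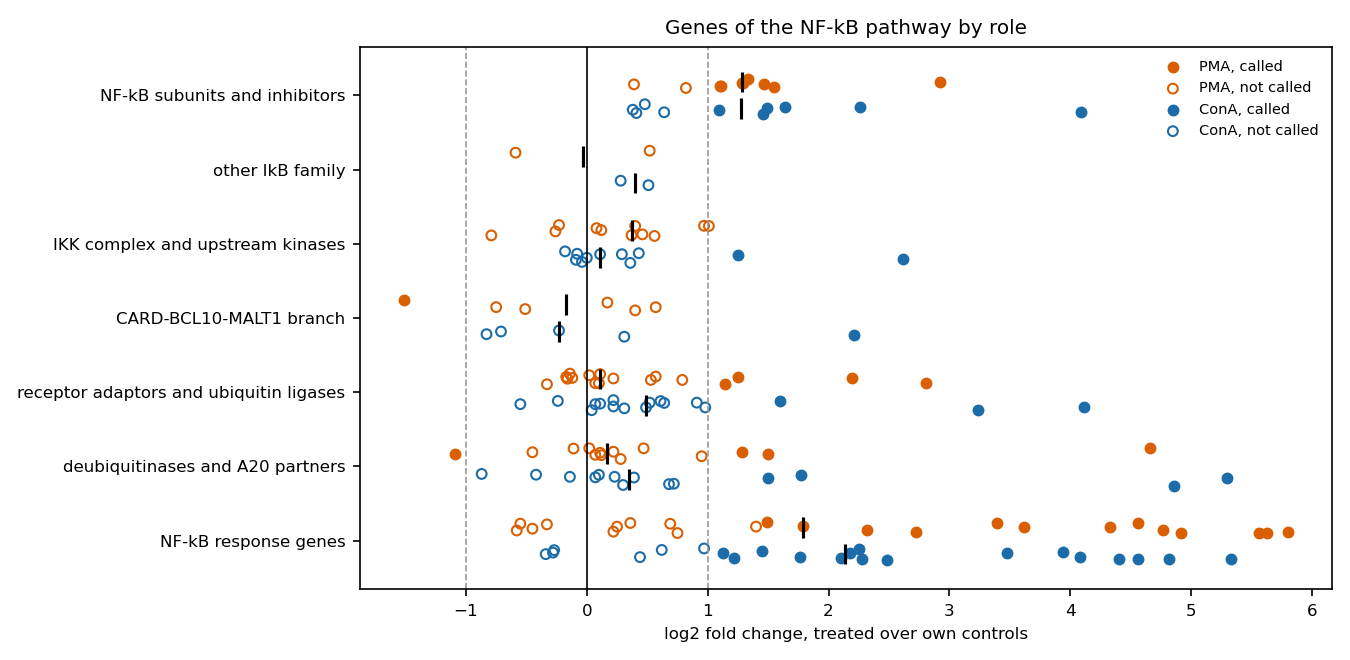
Log2 fold change (x axis) of each tested gene in 7 groups of the NF-kB pathway, with PMA in orange above ConA in blue, filled where called, and short black bars at the group medians. The 10 subunits and inhibitors all lie right of 0 with medians of 1.28, the medians of the response genes are 1.79 and 2.14, and the groups between them have medians from -0.23 to 0.49 (VCAM1 with ConA is drawn at its fitted value).

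The plot of the pathway by role sets the subunits and inhibitors beside the parts above and below them. Calls are frequent in the top and the bottom group and scattered in the others, and the difference between groups was not tested.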

How the data were processed

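Polyadenylated RNA of 12 HT1080 libraries (4 groups of 3) was sequenced. The authors deposited 1 table per experiment of normalized counts per gene symbol, signal values scaled by a factor per library and not rounded. The submitters' processing notes name Partek, STAR, Bowtie2 and DESeq2 and the builds hg19 and mm10, without roles, and the counter, annotation and strand setting are not given in the sources used here. Reads per library were estimated from the steps between low values (5 to 60), and 81.8% to 84.2% of these came out whole within 0.05. Whole reads were therefore not recovered and no count test was run.

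Groups were compared within each table by limma 3.58.1 (R 4.3.3, moderated variances with a trend) on log2(normalized count + 1), for genes with a mean of at least 10. The difference between the agents was fitted over all 12 libraries, for genes listed in both tables with that mean in either. Ratios, promoter matches and ranges were computed with Python 3.11.15, numpy 2.4.6 and pandas 2.3.3, and drawn with matplotlib 3.10.9. Promoter windows came from RefSeq (GRCh38.p14), a build apart from those in the notes, and no coordinate of the tables was used. The scripts were tested on simulated data.

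The members and lists were chosen with earlier results of these data known. Named genes were the 10 members, the 3 genes of each pathway list with the largest absolute change per agent, and for each called member the 3 genes with the nearest profile. Of the genes this rule names, 2 are not reported here. The markers CD68, ITGAM, CSF1R, GNLY, CD3E, CD8A and PTPRC were named after their values were seen. Alternatives were the pseudocount (0.1 and 10), the filter (none, and a mean of 50), quantile normalization, median centring, no variance trend, one fit of all libraries, an adjusted p of 0.05 with the same fold, the replicate number as a block, equal weights in the ratios, and leaving out each library.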

Additional observations from a re-analysis of the deposited data

Results flagged for a closer look

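For 12 named genes the test of the difference between the agents passed the thresholds, and each value is the log2 change with PMA less that with ConA, from limma over 12 libraries. Among the members this held for TNFAIP3, at -1.16. Among the genes around them it held for BIRC3, at -1.92. The cytokine and chemokine genes CXCL8 (1.73), CXCL3 (4.18) and IL6 (1.62) had the larger change with PMA. USP18 had a difference of -5.94, with a fall with PMA and a rise with ConA. SOD2 had a difference of -2.24. VCAM1 had a fitted difference of -4.58, which depends on the pseudocount because all 3 ConA controls were at 0. Of the genes with the nearest profiles, RSPO3 (-1.24) and ADAP1 (-1.46), both near TNFAIP3, and XRCC1 (1.01), near NFKBIZ, also differed. The monocyte marker CD68 had a difference of -1.18. Agent and experiment cannot be told apart in these differences.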

How the results depend on the processing

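No called result changed direction under any alternative, while the difference between the agents for NFKBIE, which was not called, took values from -0.08 to 0.06. The 8 members called with PMA and the 6 called with ConA stayed 8 and 6 in number without a variance trend, in one fit of all libraries and at an adjusted p of 0.05 with the same fold, and also without any single library (8 to 8 and 6 to 6). RELB with PMA was no longer called under quantile normalization, and NFKB1 with ConA under median centring, both at a log2 fold change of 1.00. Those settings moved the median of all genes by -0.06 and -0.09 with ConA and by -0.01 with PMA. The number of members called in the difference between the agents was 1 and became 0 without a variance trend. The genes of the other lists called with ConA became 17 in place of 26 under the same setting. Leaving out single libraries gave 1 to 1 members in the difference, 22 to 22 list genes with PMA and 23 to 28 with ConA. With equal weights the change of inhibitors over subunits with ConA was 0.31 and that of NFKB2 plus RELB over the other subunits with PMA 0.39. The cause of these changes was not tested.

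With the replicate number of the PMA experiment as a block, 8 members and 22 list genes were called, and no call of a member changed. The labels do not say whether the numbers pair the libraries. Deviations of same-numbered libraries correlated at -0.06, 0.10 and 0.10, and those of differently numbered libraries at -0.18 to 0.11. With 3 libraries a group these correlations cannot show whether the libraries were paired. No paired analysis of the ConA experiment was possible because ConA libraries and their controls share no number. With 3 libraries a group, the spread between libraries exceeded sampling noise on average over genes. This does not hold for every member and group, since TNFAIP3 with PMA had a mean of 4014.1 normalized counts and an SD of 11.3. Whether spread or depth limits the precision of each member was not tested. List genes with few reads in the controls include MAP3K8, CARD14, TNIP3 and VCAM1. Whether spread or depth limits their precision was not tested either.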

Other observations

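For each member called with either agent, the genes with the most similar profile were found as those with the smallest root mean square difference over the 12 libraries, each value taken as log2(normalized count + 1) minus the mean of the controls of its own experiment, among 14661 genes. NFKB2 had IRAK2 (0.05), TNIP1 (0.08) and CFLAR (0.12) as its nearest, the last encoding the caspase-8 regulator cFLIP. IRAK2 was also among the nearest of RELB (0.11), beside AKR1B1 (0.10) and RND3 (0.11). NFKBIA had CD83 (0.08), a surface protein gene of activated cells with log2 fold changes of 1.49 with PMA and 2.28 with ConA, then TMEM132A (0.11) and PTGIR (0.15), the prostacyclin receptor gene. NFKBIE had PTX3 (0.09), a secreted pentraxin, and IL27RA (0.12) among its nearest.

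The members with the larger change under PMA had other neighbours, which follows from choosing neighbours by their changes with both agents. NFKBIB had ARAP1, MROH1 and SLC22A15 (0.08 each), with log2 fold changes of 1.02 to 1.17 with PMA and 0.38 to 0.40 with ConA. NFKBIZ had PPP3CC (0.10), the gene of a calcineurin subunit, SLCO4A1 (0.10) and XRCC1 (0.11). NFKB1 had WWC1 (0.07), UXS1 (0.07) and EVC (0.08). No gene came as near to TNFAIP3, for which RSPO3 (0.26), ADAP1 (0.30) and ABCC9 (0.33) were the nearest. These distances describe the 12 libraries and were not tested.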
